A study of Mus musculus with 16 samples.

Results

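The genes of spermatid chromatin compaction studied here are Tnp1 and Tnp2 (transition proteins), Prm1, Prm2 and Prm3 (protamines and a protamine-like gene), and Hils1 and H1fnt (linker histone variants of spermatids). These 7 genes of the 21380 with a transcription start site (TSS) in the deposited annotation were taken as a named list. For each, every peak that carries the gene's name was collected from the 16 peak lists of the series, together with every peak that overlaps 1000 bp on either side of its TSS, which is called a promoter peak. All 7 were found in the files.

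The study profiled open chromatin by ATAC-seq, in which the Tn5 transposase inserts adapters where DNA is accessible, in purified spermatogenic cells of Scml2-knockout (Scml2-KO) and wild-type C57BL/6 mice. SCML2 is a germline protein related to the Polycomb group. There were 8 groups of 2 libraries. Spermatogonia came from testes at postnatal day 7 (P7), with about 500000 cells per reaction. They were sorted as Thy1+ (Thy1), which includes the stem cells, from Scml2-KO and wild-type mice, and as c-Kit+ (cKit), which have begun to differentiate, from Scml2-KO and wild-type mice. Pachytene spermatocytes (PS), cells in the long prophase of the first meiotic division, of Scml2-KO and wild-type mice came from adult testes with about 250000 cells per reaction. Round spermatids (RS), the haploid cells that follow meiosis, of Scml2-KO and wild-type mice came from adult testes with about 1000000 cells per reaction. The labels give no design of the knockout allele, and stage and age cannot be told apart between P7 and adult cells. They also do not say that the 2 libraries of a group came from separate animals, so a p-value here rests on spread between libraries that may be technical in part.

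During spermiogenesis, most histones of the haploid nucleus are replaced first by transition proteins and then by protamines, small arginine-rich proteins that pack sperm DNA tightly. The RNAs of Prm1, Prm2, Tnp1 and Tnp2 are made in round spermatids, stored, and translated days later in elongating spermatids. The testis transcription factor CREM, which binds cAMP response elements (CRE), is known to activate several of these genes. PS are therefore a stage before the proteins are made.

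The promoters of these genes are shown because the peaks described here lie on them. The 150 bases before the RefSeq start of each gene (GRCm38.p6) run 5′ to 3′ on the coding strand. Capitals mark matches to the motifs searched on both strands of the 250 bases before the start, namely TGACGTCA (CRE), TGACG (part of a CRE), TATAAA (the TATA box), CCAAT (the CCAAT box) and GTTGCC (part of an RFX site). Added once the sequences had been seen were TGANNTCA (CRE-like) and a TATA that starts 40 to 20 bases before the start.
Tnp1: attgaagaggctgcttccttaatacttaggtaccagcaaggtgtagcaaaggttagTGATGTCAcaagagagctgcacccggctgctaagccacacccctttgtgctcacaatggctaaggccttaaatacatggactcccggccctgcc
Tnp2: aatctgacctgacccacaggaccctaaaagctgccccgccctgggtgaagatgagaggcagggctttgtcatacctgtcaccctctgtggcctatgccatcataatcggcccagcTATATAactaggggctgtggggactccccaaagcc
Prm1: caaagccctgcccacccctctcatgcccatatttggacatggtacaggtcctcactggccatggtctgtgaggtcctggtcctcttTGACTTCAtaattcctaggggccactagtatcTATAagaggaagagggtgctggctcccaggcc
Prm2: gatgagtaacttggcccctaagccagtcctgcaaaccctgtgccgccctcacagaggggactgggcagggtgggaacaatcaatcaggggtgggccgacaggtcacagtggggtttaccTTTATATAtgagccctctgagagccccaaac
Prm3: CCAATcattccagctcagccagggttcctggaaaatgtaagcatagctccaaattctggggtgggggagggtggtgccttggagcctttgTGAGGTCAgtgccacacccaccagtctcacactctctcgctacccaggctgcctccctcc
Hils1: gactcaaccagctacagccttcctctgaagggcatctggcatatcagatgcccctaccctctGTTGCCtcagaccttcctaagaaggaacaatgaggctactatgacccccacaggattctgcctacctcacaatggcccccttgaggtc
H1fnt: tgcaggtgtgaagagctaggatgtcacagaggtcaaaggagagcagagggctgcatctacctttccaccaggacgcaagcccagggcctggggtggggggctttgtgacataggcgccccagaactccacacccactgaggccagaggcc

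Tnp1 lies on chromosome 1 at 73015900 to 73016049 of the minus strand in this window, Hils1 on chromosome 11 at 94967443 to 94967592 of the plus strand, and H1fnt, listed in RefSeq as H1f7, on chromosome 15 at 98257308 to 98257457 of the minus strand. The other 4 lie on the minus strand of chromosome 16, at 10788656 to 10788805 for Tnp2, 10790915 to 10791064 for Prm3, 10792106 to 10792255 for Prm2 and 10796824 to 10796973 for Prm1. The CRE-like TGANNTCA stood in 3 of the 7 promoters, as tgatgtca from base -94 of Tnp1, tgacttca from base -64 of Prm1 and tgaggtca from base -60 of Prm3, against 11.9% of all 32841 RefSeq promoters. The full palindrome TGACGTCA was in 0 of the 7, against 1.55% of all promoters. A TATA in the usual position was in 3 of the 7 (Prm1, Prm2 and Tnp2), against 5.81% of all promoters. TATAAA was found in 1 (Prm2, on the opposite strand), against 12.4%, and CCAAT in 2 (Prm3 and Hils1), against 33.9%. GTTGCC was in 1 (Hils1), against 10.4%, and TGACG in 1 (H1fnt, at base -180, before the bases shown), against 17.8%. TATAAA and TATA overlap in Prm2. All 7 promoters had few CpG dinucleotides, 0 to 3 in the 250 bases, with a median of 2, where the median of all promoters was 6 and 37.8% had 3 or fewer. Their GC content, 45.6% to 56.4%, lay around the median of all promoters, 52.4%. A match here is a run of letters and not a binding site.

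The lists held 17813 to 164060 peaks, with replicate 1 longer in each group, and 50.8% to 74.2% of genes had a promoter peak in a library. Where a promoter has no peak, no signal there passed the calling threshold. The number of reads is not given, and no limit on the signal behind such an absence was worked out here. The Scml2 promoter had a peak in 3 of 8 Scml2-KO libraries and 6 of 8 wild-type libraries, which checks nothing about the knockout, since the labels do not place the deletion. Of 8 markers of Thy1+ spermatogonia, 7 to 8 had a promoter peak in Thy1, 2 to 7 in cKit, 3 to 5 in PS and 4 to 7 in RS libraries. Of 6 markers of c-Kit+ spermatogonia, 3 to 4 had one in Thy1, 2 to 6 in cKit, 3 to 6 in PS and 4 to 5 in RS libraries. The c-Kit+ list thus did not set the cKit libraries apart. Of 8 pachytene markers, 8 had a promoter peak in each PS library, 7 to 8 in RS libraries and 0 to 4 in P7 libraries. Of 8 round spermatid markers, a promoter peak was found for 8 and 7 in the Scml2-KO and 8 and 8 in the wild-type libraries of RS, and for 8 and 5 in the Scml2-KO and 7 and 5 in the wild-type libraries of PS, against 0 to 4 in P7 libraries. Promoter peaks of round spermatid genes were thus present in the PS fraction. Acr, Actl7a, Actl7b, Spaca1 and Spata18 had one in 4 of 4 PS libraries, Acrv1 and Tssk1 in 2 and Tssk2 in 1. Of 8 Sertoli markers, 0 to 3 had a peak in PS libraries and 2 to 4 in RS libraries, against 7 to 8 in Thy1 and 2 to 8 in cKit libraries, with Rhox8 and Cst12 at 0 in the adult libraries and Wt1 in 4 RS and 0 PS libraries. Of 6 peritubular markers, 1 to 4 had a peak in PS and 1 to 5 in RS libraries, against 2 to 6 at P7, and of 6 Leydig markers 0 to 1 in adult libraries against 0 to 4 at P7. Of 6 immune markers, 0 to 1 had a peak in adult libraries against 0 to 3 at P7. Cyp11a1 and Ptprc had none in any of the 16 libraries, P7 included, whereas Nr5a1 (Leydig) had one in 0 adult and 6 P7 libraries and Csf1r (immune) in 0 adult and 3 P7 libraries. Any part of spermatids or somatic cells in the PS values below was not tested. More cells of a type and more open chromatin per cell cannot be told apart in such lists.

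Every one of the 7 promoters carried a peak in all 4 RS libraries, most carried one in PS, and all but 1 of the 56 gene-and-library pairs at P7 had none. A promoter peak need only touch the window. Peaks over the TSS itself were fewer in PS, for 4 and 0 of the 7 genes in Scml2-KO and 7 and 5 in wild type. In RS they were found for 7 and 6 in Scml2-KO and 7 and 7 in wild type. The share of all genes with a peak over the TSS was not counted. Adult libraries with a promoter peak numbered 8 of 8 for Tnp1, Tnp2 and Prm3, 7 of 8 for Prm1, Prm2 and Hils1, and 6 of 8 for H1fnt. At P7 the count was 0 of 8 for 6 genes and 1 of 8 for Tnp2. Counts of libraries with a peak were compared gene by gene with Fisher's exact test (two-sided), adjusted by Benjamini-Hochberg over the 3913 genes able to reach p = 0.05. All 7 were called higher in adult cells, beside 8.48% of the genes tested. The adjusted p by this exact test was 0.00358 for Tnp1 and Prm3, 0.00877 for Tnp2, Prm1, Prm2 and Hils1, and 0.0246 for H1fnt (n = 8 and 8 libraries). Within wild type alone 4 of the 7 were called, and within Scml2-KO alone 0. Of all genes, in either direction, 0 were called in Scml2-KO alone and 911 in wild type alone. Prm2, Prm3, Tnp1 and Tnp2 had a peak in every adult and no P7 library of Scml2-KO (adjusted p = 0.0839, Fisher exact test). Prm1, Prm3, Tnp1 and Hils1 were separated in the same way in wild type (adjusted p = 0.0442, Fisher exact test). Every gene so separated has a Fisher exact p of 0.0286, so all of them are called or none. The counts of 4 and 0 therefore do not compare the genotypes, and the cause of the gap in adjusted p was not tested. The P7 peak of Tnp2 was in Thy1 wild type replicate 1. It was 117 bp long with a fold enrichment of 4.22 and a summit 963 bp downstream of the Tnp2 TSS, and it carried the name of Socs1.

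**Figure D1:**
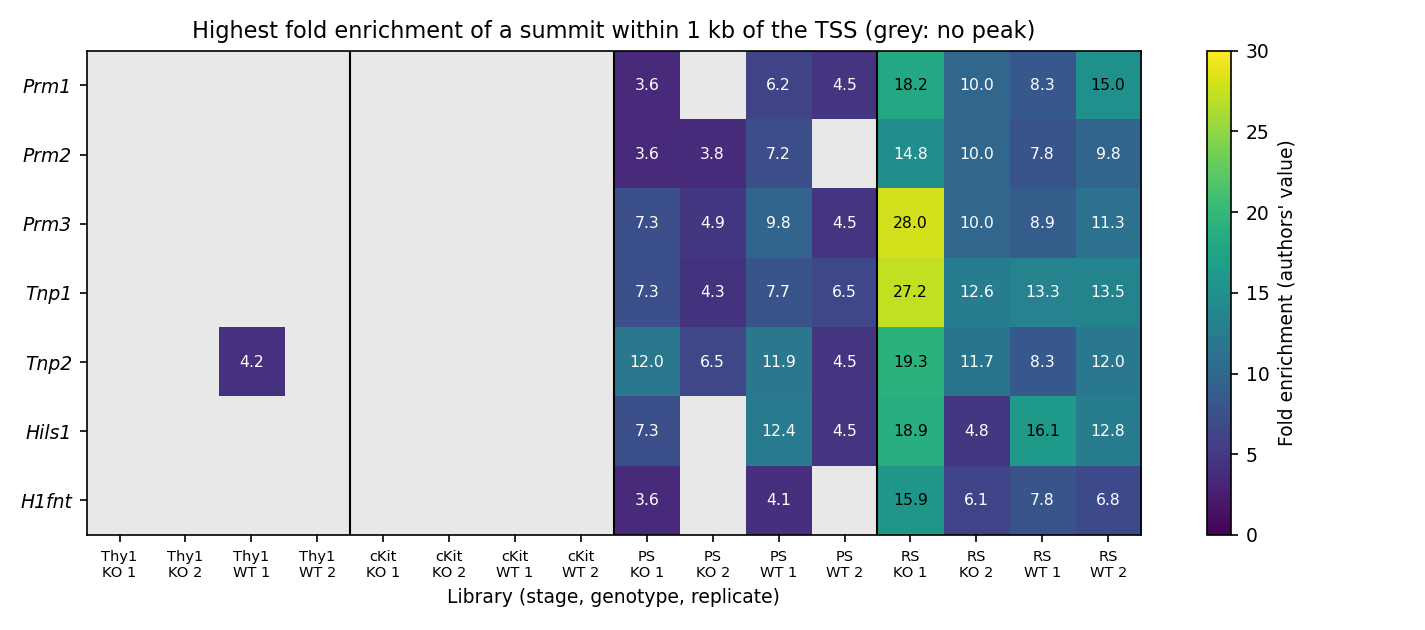
Highest fold enrichment, the authors' value, of a summit within 1000 bp of the TSS for each gene (rows) in each of the 16 libraries (columns, by stage, with Scml2-KO left of wild type), where grey marks no promoter peak. All 28 squares of RS are filled and 23 of the 28 squares of PS, against 1 of the 56 at P7.

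Fold enrichment is the authors' own value per summit. It follows the summit's coverage, which is not scaled to library size, so levels of different libraries are set side by side here without a test. Fold values below are those of the highest summit within 1000 bp of the TSS.

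Tnp1, the transition protein thought to loosen histone contacts and the more abundant of the pair in mouse, had folds in RS of 27.25 and 12.56 in Scml2-KO and 13.29 and 13.52 in wild type. Its folds in PS were 7.28 and 4.35 in Scml2-KO and 7.74 and 6.53 in wild type. All 4 RS values lay above all 4 PS values. RS Scml2-KO replicate 1, the library with the longest list, was the highest. The length of the 2001-bp window covered by peaks was also greater in every RS than in every PS library. It was 1861 and 1394 bp in Scml2-KO and 1257 and 1476 bp in wild type in RS, and 293 and 151 bp in Scml2-KO and 878 and 1185 bp in wild type in PS. In PS the Scml2-KO libraries covered less of it than the wild-type libraries, and 2 against 2 libraries allow no exact p under 0.333. The same order held in PS for Prm1, with 139 and 0 bp in Scml2-KO and 845 and 509 bp in wild type. It also held for Hils1, with 267 and 0 bp against 389 and 299 bp, but not for Prm2, Prm3, Tnp2 or H1fnt. How many of all genes show this order was not counted.

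Tnp2, the zinc-binding transition protein, overlapped between the stages where Tnp1 did not. Its folds in RS were 19.30 and 11.69 in Scml2-KO and 8.31 and 12.02 in wild type, and in PS 11.96 and 6.52 in Scml2-KO and 11.87 and 4.52 in wild type. In both genotypes PS replicate 1 exceeded RS wild type replicate 1 and RS Scml2-KO replicate 2. The covered length in RS was 1817 and 2001 bp in Scml2-KO and 1231 and 1670 bp in wild type, and in PS 2001 and 548 bp in Scml2-KO and 2001 and 1282 bp in wild type. The Tnp2 window was thus covered whole in both PS replicate 1 libraries.

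Prm1, a protamine found in sperm of all mammals, had folds of 18.16 and 9.96 in RS Scml2-KO and 8.31 and 15.03 in RS wild type. In PS it had 3.64 and no peak in Scml2-KO, and 6.19 and 4.52 in wild type. The lowest RS value was above the highest PS value, whereas the covered length overlapped, at 800 to 1598 bp in RS against 0 to 845 bp in PS. Prm2, which is made as a longer precursor and then cut, had 14.76 and 9.96 in RS Scml2-KO and 7.75 and 9.77 in RS wild type. In PS it had 3.64 and 3.80 in Scml2-KO, and 7.23 and no peak in wild type. RS again lay above PS, and the covered length did so too, at 1286 to 1874 bp in RS against 0 to 1004 bp in PS.

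Prm3, encoded between Prm2 and Tnp2 and acidic where protamines are basic, had 28.00 and 9.96 in RS Scml2-KO and 8.86 and 11.27 in RS wild type. It had 7.28 and 4.89 in PS Scml2-KO and 9.81 and 4.52 in PS wild type. The windows of Prm2 and Prm3 overlap, and in RS Scml2-KO replicate 2 the value of 9.96 came from the same summit for both. The stages overlapped by 1 library, PS wild type replicate 1, and RS Scml2-KO replicate 1 was again far above the others. The covered length was 1159 to 1859 bp in RS and 201 to 1445 bp in PS.

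Hils1, a linker histone variant of spermatids encoded within Sgca, had folds of 18.92 and 4.76 in RS Scml2-KO and 16.06 and 12.77 in RS wild type. It had 7.28 and no peak in PS Scml2-KO, and 12.39 and 4.52 in PS wild type. Here RS Scml2-KO replicate 2 was low and lay within the PS values. The highest summit was nearly fixed, 84 to 98 bp upstream of the TSS in RS and 85 to 124 bp upstream in PS. The RefSeq start of Hils1, where the printed sequence ends, lies upstream of the TSS at 94967661 in the deposited annotation, from which these distances are counted. Its peaks were short, with at most 740 bp in RS and 389 bp in PS.

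H1fnt, the linker histone variant needed for normal nuclear shaping of mouse sperm, had folds of 15.89 and 6.06 in RS Scml2-KO and 7.75 and 6.76 in RS wild type. It had 3.64 and no peak in PS Scml2-KO, and 4.13 and no peak in PS wild type. All RS values exceeded the PS values. The highest summit lay 60 to 132 bp upstream of the TSS in the 4 RS libraries. In PS Scml2-KO replicate 1 the summit lay 628 bp downstream. PS wild type replicate 1 had a pair of summits of equal fold, 655 bp downstream and 127 bp upstream. Summits 599 to 878 bp downstream were also found in RS, in both Scml2-KO libraries and in wild type replicate 2, so both positions occurred in both stages. H1fnt had the fewest adult libraries with a peak of the 7.

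**Figure D2:**
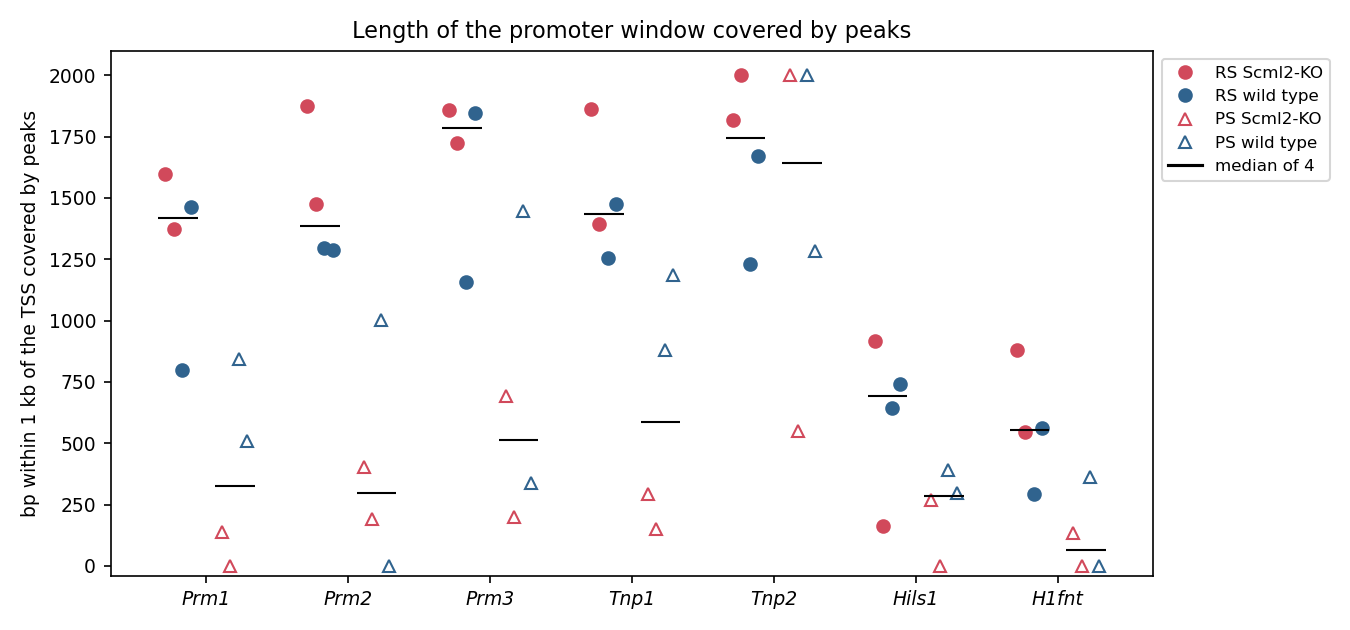
Bases of the 2001-bp window around each TSS that are covered by peaks (vertical axis, bp), one point per library, RS (filled circles) left of PS (open triangles), with Scml2-KO in red, wild type in blue and the median of 4 libraries as a bar. Points of RS and PS are apart for Prm2 and Tnp1 and overlap for the other 5 genes.

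Taking the RS and PS libraries as wholes, the promoter window was covered further in all 4 RS than in all 4 PS libraries for 2 of the 7 genes (Prm2 and Tnp1), beside 1.42% of the 16586 genes with a promoter peak in at least 1 of these 8 libraries. The summit fold was higher in all 4 RS libraries for 4 of the 7 (Prm1, Prm2, Tnp1 and H1fnt), beside 0.916% of the same genes. In both counts a library without a peak was entered as 0, although the signal there need not be 0. Of these 4 genes only Tnp1 had a fold in all 8 libraries. The opposite order, all PS above all RS, held for 791 genes by fold and 456 by covered length, with none of the 7 among them. No gene of the 7 had a peak in 4 of 4 RS and 0 of 4 PS libraries, beside 0.157% of genes with that pattern. From cKit to PS, 3 of the 7 (Prm3, Tnp1 and Tnp2) had a peak in 4 of 4 PS and 0 of 4 cKit libraries, beside 1.31% of genes. For Prm3, the peaks in PS Scml2-KO replicate 2 lay away from the TSS, as given above. The smallest exact p of 4 against 4 libraries is 0.0286, so these steps have no adjusted call. Without PS Scml2-KO replicate 2, which has the shortest of the PS lists, 5 of the 7 had that pattern.

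With every list shortened to the length of the shortest, 17813 peaks, all 7 genes had a promoter peak in 4 of 4 RS libraries. In PS, Tnp2 then had one in 4 of 4 libraries, Prm3 in 3, Prm2, Tnp1 and Hils1 in 1 each, and Prm1 and H1fnt in 0. In replicate 1 of both PS genotypes the Tnp2 and Prm3 windows were overlapped by a long peak with its highest summit outside them, with folds of 32.23 in Scml2-KO and 22.20 in wild type. In PS wild type replicate 2 a 3720-bp peak over the Socs1 start, with a fold of 21.61, also reached into the Tnp2 window. The highest summit within that window had a fold of 4.52. At thresholds of 5 on −log10 q or fold, Tnp2 counted in that library only through the Socs1 peak. The summit in the Tnp2 window itself had a −log10 q of 20.77 and 7.07 in PS Scml2-KO and 20.49 and 3.43 in PS wild type. In PS, 7 and 4 of the 7 genes had a promoter peak in Scml2-KO and 7 and 5 in wild type. This number moved with that of the round spermatid markers given above and with the length of the list, 105751 and 21878 peaks in Scml2-KO and 85348 and 24751 in wild type, whose part was not tested. In RS it was 7 in each library, with lists of 164060 and 27105 peaks in Scml2-KO and 52379 and 31070 in wild type.

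Tnp2, Prm3, Prm2 and Prm1 follow each other within 8168 bp on chromosome 16, all transcribed in the same direction, with Socs1, a suppressor of cytokine signalling, 3119 bp downstream of the Tnp2 TSS. The interval from the 3′ end of Tnp2 to 1000 bp before the Prm1 TSS was covered by peaks over 76.1% and 62.7% of its 9889 bp in RS Scml2-KO and 34.3% and 52.9% in RS wild type. In PS the covered share was 30.6% and 7.9% in Scml2-KO and 45.1% and 20% in wild type. At P7 it was 0 in all 8 libraries. RS and PS overlapped only through PS wild type replicate 1, which exceeded RS wild type replicate 1. Socs1 itself had a promoter peak in all 16 libraries.

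**Figure D3:**
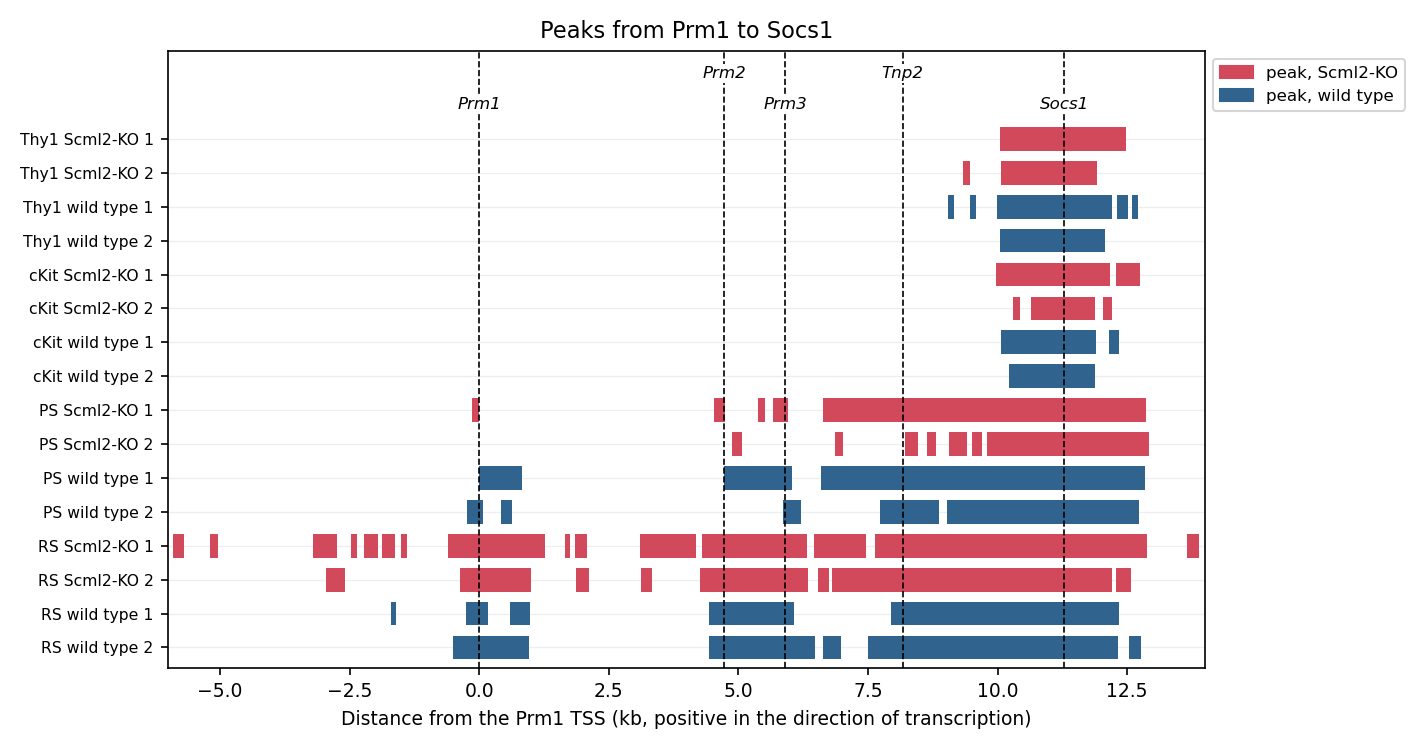
Peaks (bars) of each library (rows, by stage, with Scml2-KO in red above wild type in blue) along the chromosome 16 cluster, by distance from the Prm1 TSS in kb, with dashed lines at each TSS. P7 libraries hold peaks at the Socs1 end only, and the 4 RS libraries hold peaks over every TSS.

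Much of the cluster lay in peaks that several genes share. A single peak ran over the Socs1 and Tnp2 start sites in 4 of 4 RS libraries, with lengths of 5238 and 5396 bp in Scml2-KO and 4408 and 4836 bp in wild type, and in replicate 1 of each PS genotype, with 6231 bp in Scml2-KO and 6258 bp in wild type. In the P7 libraries the Socs1 peak stopped short of Tnp2, and 24.8% to 49.1% of the 3120 bp from the Socs1 TSS to the Tnp2 TSS was covered, against 100% in RS and 80.3% to 100% in PS. Another single peak joined the Prm3 and Prm2 start sites, which are 1183 bp apart, in all 4 RS libraries, at 2012 and 2084 bp in Scml2-KO and 1638 and 2043 bp in wild type. In PS it was found in wild type replicate 1 alone, at 1315 bp. The 4726 bp between the Prm2 and Prm1 start sites held separate peaks, so Prm1 shared none of these long peaks. Of the 92 peaks that name at least 1 of the 7 genes, 22 name several of them, and accessibility cannot be divided among the genes of a shared peak.

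Tnp1 on chromosome 1 had a long open stretch of its own. From 1000 bp before its TSS to 4000 bp past its 3′ end, a length of 5825 bp, peaks covered 87.6% and 67.1% in RS Scml2-KO and 63.6% and 67.0% in RS wild type. In PS they covered 15.2% and 2.6% in Scml2-KO and 55.4% and 42.8% in wild type, and at P7 none of it was covered. All RS values lay above all PS values, and in PS both wild-type values lay above both Scml2-KO values. A stretch of this kind was not measured over all genes, so neither order has a share of all genes beside it. For the genotypes, 2 against 2 libraries allow no exact p under 0.333. The peak over the TSS was 4776 and 3749 bp long in RS Scml2-KO and 1158 and 3763 bp in RS wild type. The start of 1700027A15Rik, a transcript on the opposite strand, lies 137 bp from that of Tnp1. Its promoter peaks were those of Tnp1, in 8 of 8 adult and 0 of 8 P7 libraries, and the reads of the pair cannot be told apart.

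**Figure D4:**
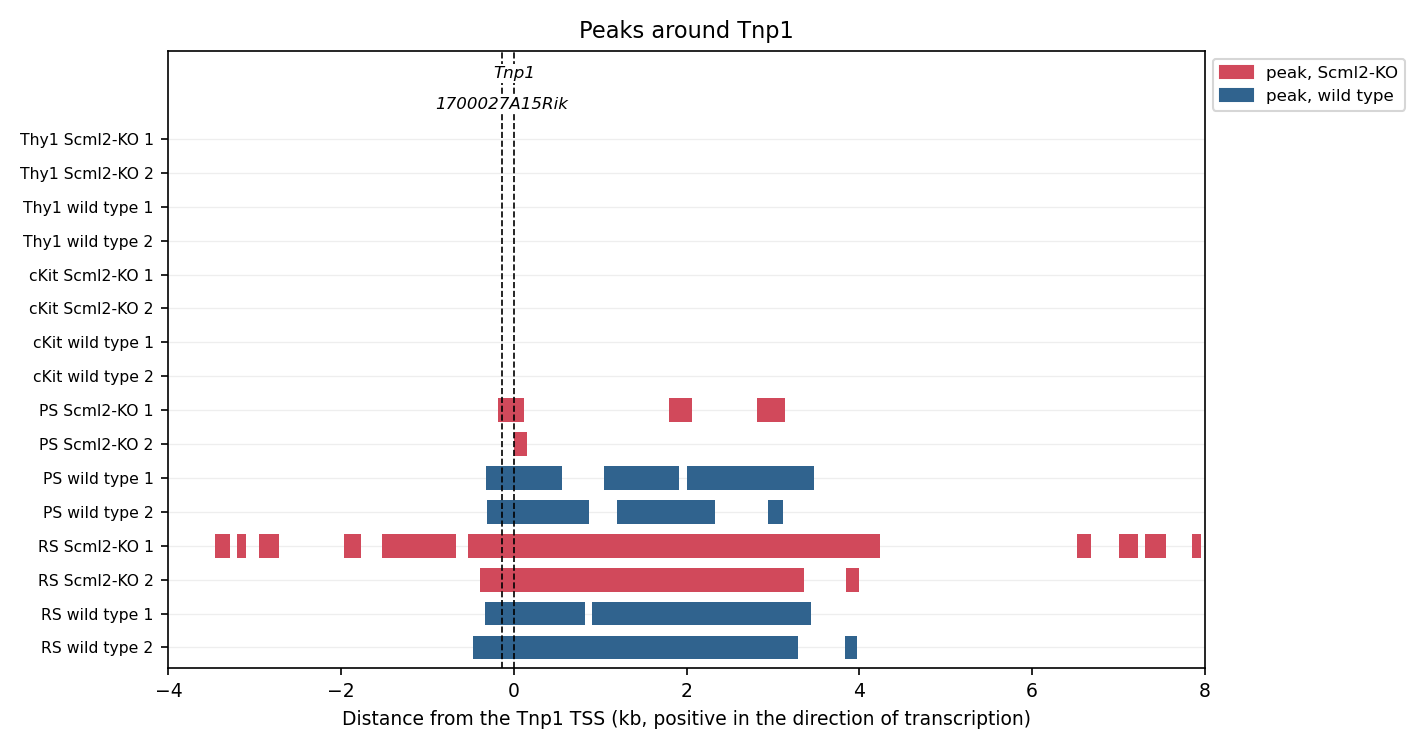
Peaks (bars) of each library (rows, by stage, with Scml2-KO in red above wild type in blue) around Tnp1, by distance from its TSS in kb, with dashed lines at the starts of Tnp1 and 1700027A15Rik. The 8 P7 libraries have no peak here. Peaks reach past 3 kb downstream in the RS libraries, and also in both PS wild-type libraries and PS Scml2-KO replicate 1.

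Scml2-KO and wild-type libraries carried these promoter peaks in numbers that differed by at most 1 library per gene, and none of the 7 could reach p = 0.05 in the exact genotype test. Over all stages, libraries with a promoter peak numbered 3 in Scml2-KO and 4 in wild type for Prm1, 4 and 3 for Prm2, 4 and 4 for Prm3, 4 and 4 for Tnp1, 4 and 5 for Tnp2, 3 and 4 for Hils1, and 3 and 3 for H1fnt. In RS the peak was present in 2 of 2 libraries of each genotype for all 7. These counts take any overlap with the window, and peaks over the TSS itself were fewer in PS Scml2-KO, as given above. Across the series, the exact test that permutes genotype within each stage called 0 of the 811 genes able to reach p = 0.05 (percent called 0), with 14 at an unadjusted p under 0.05 and 0 called by the sign test of numbered pairs, which had 2 under 0.05 among 12 genes. It therefore says nothing about the 7.

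Of the 92 peaks naming a gene of the list, 31 lay outside all 7 promoter windows, with 21 in RS, 3 in PS, 6 in Thy1 and 1 in cKit. RS Scml2-KO replicate 1 alone gave 16 of them, and RS Scml2-KO replicate 2 gave 3, RS wild type replicate 1 gave 2 and RS wild type replicate 2 gave 0. The authors' region was upstream for 30 and exon for 1. Hils1 had an upstream site that recurred across stages: 7 libraries, among them 3 of 4 Thy1, had a peak whose summit lay 9415 to 9939 bp before its TSS, 112 to 590 bp long with folds of 3.88 to 6.71. Of these libraries, 4 were from P7 cells and had no Hils1 promoter peak, and 6 were replicate 1, the longer list of their group. A threshold of 5 on −log10 q left 6 of the 31 peaks.

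Of the 10 other genes with a TSS within 50000 bp, Rmi2, Socs1 and Ppp1r9b had a promoter peak in all 16 libraries, and Sgca, which contains Hils1, and the olfactory receptor genes Olfr286 and Olfr287 in 0. The pattern of 1700027A15Rik was that of Tnp1, as given above. Col1a1, a collagen chain gene 31391 bp from Hils1, had a peak in 3 of 8 adult libraries, all RS, against 8 of 8 P7 libraries (adjusted p = 0.0545, Fisher exact test). Samd14 had one in 4 adult and 7 P7 libraries, and Zfp641 in 6 adult and 4 P7 libraries.

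Genes for proteins that carry out the exchange mostly had promoter peaks in P7 and adult libraries alike, as did many genes of the genome. Of all 21380 genes, 8358 (39.1%) had a promoter peak in all 16 libraries. Of 20 genes for histone removal and histone-to-protamine exchange, 16 had a promoter peak in all 16 libraries, among them Rnf8 (a ubiquitin ligase), Psme4 (a proteasome activator) and Hspa2 (a chaperone), and 1 was called higher in adult cells, beside 8.48% of all genes tested. That gene was Chd5, a chromatin remodeller, with 8 of 8 adult and 2 of 8 P7 libraries (adjusted p = 0.0246, Fisher exact test). Brdt, a testis bromodomain protein that binds acetylated histones, had 8 adult and 6 P7 libraries, and Npm2 had 0. Few of these genes could be tested, since a gene open in nearly all libraries cannot reach the threshold: 1 of the 20 was tested. Of 16 genes that control protamine gene expression, 9 were open in all 16 libraries, Crem, Rfx2 and Tbpl1 among them, and 1 of 4 tested was called, beside the same 8.48%. It was Piwil1, a PIWI protein of late meiosis, with 8 adult and 0 P7 libraries (adjusted p = 0.00358, Fisher exact test). Fhl5, the testis coactivator of CREM, had 7 adult and 4 P7 libraries, with 0 of 4 in cKit, and did not pass (adjusted p = 0.377, Fisher exact test). Taf7l had 6 adult and 2 P7 libraries (adjusted p = 0.196, Fisher exact test), and Papolb had 8 adult and 4 P7 libraries.

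Of 11 other germline histone genes, 9 were found in the files. Of these, 5 (H3f3a, H3f3b, H2afz, H2afx and H2afv) had a promoter peak in all 16 libraries, beside the 39.1% of all genes, and 0 of 2 tested were called. H2afb1, an H2A variant of spermatids, had a promoter peak in 4 of 4 RS, 1 of 4 PS and 0 of 8 P7 libraries (adjusted p = 0.0545, Fisher exact test). Hist1h1t, the testis linker histone of spermatocytes, had 6 adult and 5 P7 libraries, with 2 of 4 in RS and 4 of 4 in PS. Hist1h2ba and Hist1h2aa, which share a divergent promoter, had 8 adult and 6 P7 libraries each.

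Prm1 and Hils1, on different chromosomes, had promoter peaks in the same libraries, 16 of 16 alike, and so did Prm3 and Tnp1. The least alike were Tnp2 and H1fnt, at 13 of 16. The same pattern over 16 libraries was shared with 54 other genes for Prm3 and Tnp1, 70 for H1fnt, 28 for Prm1 and Hils1, 18 for Prm2 and 9 for Tnp2. Ranked within these by the Spearman correlation of fold over 16 libraries, with 0 for no peak, the genes most like each were 1700054M17Rik and Banf2 for Tnp1 (1.00 and 0.99) and for Prm3 (0.99 and 0.98), followed by 1700030L20Rik for Tnp1 (0.98) and Scp2d1 for Prm3 (0.97). For Prm1 they were 4933406D12Rik, Antxrl and Klf17 (0.99, 0.99 and 0.97), and for Tnp2 1700074P13Rik, Wbp2nl and Trpd52l3 (0.97, 0.95 and 0.93). For Prm2 they were 4930413F20Rik, 4922502H24Rik and B230214G05Rik (0.98, 0.97 and 0.96). Hils1 had 4930552N02Rik, Gm17359 and 1700065I17Rik (1.00, 1.00 and 0.99), and H1fnt had 1700022A21Rik, 1700067P10Rik and 4930430F21Rik (1.00 each). Genes of the same pattern are tied at 0 in the same libraries, so a high correlation is in large part fixed by that choice. These values also share libraries and list lengths and describe likeness only.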

How the data were processed

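ATAC-seq peak lists of 16 libraries were analysed, 2 for each of 8 groups defined by the labels. The genes and gene lists were chosen with earlier results of these data known. The submitters' processing notes name Bowtie 1.1.1, MACS2 2.1.0.20140616 and the build mm10 without options. Lists were called per library and not pooled. The pileup is the signal (coverage) at a summit and the fold enrichment is a ratio, both as the authors deposited them; fold equalled pileup plus 1 over a background plus 1 that was constant within a list, to within 0.00049. Each line also has a −log10 p, a −log10 q and a length in bp, per the file headers.

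Here, lines of the same peak were joined, giving 1111092 peaks without the 576 mitochondrial lines. No 2 lists were identical. A TSS came from the deposited annotation, with 1056 of 1412 genes named only beside others matched by position to RefSeq (GRCm38.p6). A promoter peak overlaps TSS ± 1000 bp by at least 1 bp. Adult (8) and P7 (8) libraries were compared by Fisher exact tests over genes open in 5 to 11 libraries, genotype by an exact test within stages (1296 arrangements), both with a threshold of 0.05. The test was checked on simulated lists. Alternatives were a window of 500 bp, thresholds of 5 on −log10 q or fold, lists cut to equal length by −log10 q, single libraries left out, each genotype alone, a replicate block, another gene filter and, added after the data were seen, summits inside the window. Named genes are the 7 genes, all genes within 50000 bp, every called gene of the lists with examples of the others chosen after their values were seen, all germline histone variants, and 3 genes alike per pattern. Python 3.11.15, numpy 2.4.6, pandas 2.3.3 and scipy 1.17.1 were used.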

Additional observations from a re-analysis of the deposited data

Results flagged for a closer look

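The fold enrichment of Prm3 in RS Scml2-KO replicate 1 was 28.00, with the other 3 RS libraries at 9.96, 8.86 and 11.27, and its gap to the nearest was 0.874 of the range. That of Tnp1 in the same library was 27.25, with the others at 12.56, 13.29 and 13.52 and a gap of 0.934 of the range. Both stand out as a sample far from the others, among 14 groups of 4 libraries examined, where chance marks about 1 in 20. This library has the longest list, 164060 peaks, and the part of that in its values was not tested. Each of the 7 genes had its highest RS fold in it. A rank within a list is the percent of genes with a summit in their promoter window that had a lower fold. For Tnp1 the rank was 83.8 here, against 76.0 in RS Scml2-KO replicate 2 and 56.8 and 75.3 in RS wild type. For Prm3 it was 85.4 here, against 61.1 in RS Scml2-KO replicate 2 and 36.0 and 64.9 in RS wild type. H1fnt also ranked highest here, at 51.4 against 34.1 in the next library. The other genes ranked higher in another RS library. Prm1 had 58.3 here and 81.3 in wild type replicate 2, and Hils1 60.8 and 72.2 in the same libraries. Prm2 had 47.5 here and 61.1 in Scml2-KO replicate 2, and Tnp2 61.9 and 71.8 in the same libraries. Without this library all 7 genes stayed called higher in adult cells.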

How the results depend on the processing

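The count of the 7 genes called higher in adult than in P7 cells was 7 without any single library and under the replicate block and the summit rule. It was 6 with a window of 500 bp or with genes open in 1 to 15 libraries, and 5 with lists of equal length. It was 4 with a −log10 q of 5 or more, 4 with a fold of 5 or more, 4 in wild type alone and 0 in Scml2-KO alone. Of all genes, 1300 were called in either direction, 332 higher in adult and 968 higher in P7 cells. Counted in either direction, there were 2129 with lists of equal length, 624 with genes open in 1 to 15 libraries and 2232 with the replicate block. There were 0 in Scml2-KO alone, 911 in wild type alone, and 1325 to 2409 without single libraries (2409 without cKit Scml2-KO replicate 2). Of 175 gene-and-setting pairs, 10 were not called because the gene could no longer reach 0.05 in the exact test and left it, 5 of them for H1fnt and 2 for Prm1. Of the 165 tested, 155 adjusted p values stayed under 0.05 and 10 did not, with 0 changes of direction: H1fnt at 0.0528 (500 bp) and 0.0617 (1 to 15 libraries), Prm1 and Hils1 at 0.0534 (−log10 q) and 0.0503 (fold), and Prm2, Prm3, Tnp1 and Tnp2 at 0.0839 (Scml2-KO alone). The count in 4 of 4 PS and 0 of 4 cKit libraries, 3, was 2 with a window of 500 bp. It was 1 with −log10 q of 5 or more, 1 with fold of 5 or more and 1 with equal lists. It was 4 in Scml2-KO alone, 5 in wild type alone and 3 to 5 without single libraries. The count in 4 of 4 RS and 0 of 4 PS libraries, 0, was 1 with −log10 q of 5 or more (H1fnt), 1 with fold of 5 or more (H1fnt) and 2 with equal lists (Prm1 and H1fnt). Peaks outside the windows, 31, fell to 6 with −log10 q of 5 or more and to 6 with fold of 5 or more. The genotype count stayed at 0 wherever it was run. For these changes the cause was not tested. Replicate numbers were not taken as pairs, since the correlation of same-numbered deviations passed 0.1 in 18 and not in all of 28 pairs of groups (-0.003 to 0.425). Same-numbered libraries still deviated together in many of these, and replicate 1 had the longer list in all 8 groups. The number of reads is not given, and a missing peak cannot be read as closed chromatin.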
